A study of Mus musculus with 10 samples.

Results

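DNA replication and G1/S genes encode the machinery that a cell builds as it passes from G1 into S phase and copies its genome. The list holds 31 genes, chosen by name, and each was read from the probe set with the highest mean among those whose platform annotation names that gene alone. By this rule 30 of the 31 genes were measured, among 18193 genes on the array. Chaf1a, a subunit of the chromatin assembly factor, was not analysed here. The genes were compared on 10 Affymetrix arrays of RNA from CD4+CD25+ T cells, the surface phenotype of regulatory T cells (Treg), taken from pooled lymph node sites of BALB/c mice 17 to 19 days old.

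The me group (n = 3) came from mice homozygous for a knockout of SHP-1, which show the motheaten phenotype. The he group (n = 3) came from mice heterozygous for that knockout, and the WT group (n = 4) from wild type mice. SHP-1, encoded by Ptpn6, is a tyrosine phosphatase that dampens signals from antigen and cytokine receptors in blood cells. All cells were isolated with a magnetic kit and were neither cultured nor treated after harvest. Each array started from 20 ng of total RNA, which was amplified, and 10 µg of the amplified RNA was labelled. Arrays of a genotype are labelled as biological replicates, without a word on which mice they came from, so p-values measure only the spread between these samples.

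In G1 the origin recognition complex, Cdc6 and Cdt1 load the MCM hexamer onto origins. Cyclin E with its kinase, and E2F factors released from RB proteins, then switch on the genes of S phase, and Cdc45 and the GINS complex turn the hexamer into an active helicase. Polymerases, the Pcna clamp and a supply of deoxynucleotides and histones carry the fork forward. Resting lymphocytes keep this programme low, and dividing T cells, among them the fraction of Treg that cycles in young mice, raise it.

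The promoters are shown first because the same short sequence recurs in them. RefSeq promoters of build GRCm38.p6, from 250 bases before to 50 bases after the gene start, were matched for 26 of the 31 genes. The letters TTTCCCGC, TTTCGCGC, TTTGCCGC and TTTGGCGC, spellings of the E2F recognition motif, were searched on both strands, and overlapping matches were allowed. A match was found in 9 of the 26 promoters (34.6%), against 704 of 27025 promoters of all genes (2.6%). Among other replication genes 21 of 63 promoters held one (33.3%), and among mitosis and G2/M genes 1 of 15 (6.67%). A match describes the letters in this window and is not evidence of binding. The Mcm6 promoter holds 3 matches, 2 of them overlapping head to head. The stretch shown is the part of the window that holds them, the 130 bases just before the gene start, at chr1:128359706-128359835 on the minus strand, and capitals mark the matches.
Mcm6: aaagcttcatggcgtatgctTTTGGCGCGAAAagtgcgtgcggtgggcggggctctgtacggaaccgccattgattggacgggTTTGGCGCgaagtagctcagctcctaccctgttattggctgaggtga

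One match from each of the other 8 promoters is given below in 30 bases, 5′ to 3′ on the strand of the gene, again with the matches in capitals. In Mcm5 a pair of matches overlaps as in Mcm6, and the remaining sites are single.
Mcm5 (chr8:75109347-75109376, plus strand): gccaagaacTTTCGCGCCAAAacgtccagc
Mcm3 (chr1:20820275-20820304, minus strand): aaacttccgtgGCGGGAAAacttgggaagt
Mcm7 (chr5:138172030-138172059, minus strand): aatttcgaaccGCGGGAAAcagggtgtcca
Cdc6 (chr11:98908002-98908031, plus strand): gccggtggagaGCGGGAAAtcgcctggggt
Cdt1 (chr8:122568035-122568064, plus strand): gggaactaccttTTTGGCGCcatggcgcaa
Pola1 (chrX:93632275-93632304, minus strand): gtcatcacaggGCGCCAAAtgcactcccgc
Lig1 (chr7:13278841-13278870, plus strand): cgccaaagtgcGCGCGAAAtctgtgtggcg
Uhrf1 (chr17:56304117-56304146, plus strand): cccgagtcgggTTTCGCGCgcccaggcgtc
The CCAAT box was more widespread, and 16 of the 26 promoters held CCAAT on either strand (61.5%), against 41.1% of all promoters. Among other replication genes 34 of 63 promoters held it (54%), and among mitosis and G2/M genes 13 of 15 (86.7%).

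Values below are log2(intensity + 32) after quantile normalisation between arrays, and differences are on the same scale, which understates changes of dim probe sets. Of the 30 genes, 29 lay above the median probe set (7.62) on all 10 arrays and 27 above the upper quartile (8.36). The exception at the median was Ccne2, which read 7.59 on me 2 and 7.60 on WT 3. Tyms had the lowest mean, 7.82, because a further Tyms probe set that names a pseudogene too was left out. The 30 genes had 69 probe sets in all, and 24 of them had more than 1.

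The arrays fell into 2 sets by their correlation over all probe sets, 0.970 to 0.996 within a set and 0.854 to 0.944 between sets. No label describes these sets. Set A held me 1, me 3, he 1, WT 1 and WT 2, and set B held me 2, he 2, he 3, WT 3 and WT 4. Of set A, me 3 lay nearest to set B, with a mean correlation of 0.929 against 0.880 to 0.882 for the rest. Of the 30 genes 25 were lower in set B than in set A (median difference -0.39), against 55.2% of all genes. Each genotype comparison is therefore given without a block and with a term for array set, called the block. The targeted gene followed its labels: the brighter Ptpn6 probe set read 8.84 to 9.08 in me, 9.30 to 9.54 in he and 9.55 to 9.83 in WT. That probe set carries the _x_ mark, explained below. The other read 8.05 to 8.31 in me, 8.71 to 8.98 in he and 9.08 to 9.62 in WT. Yet neither passed an adjusted p of 0.05 between me and WT. Their limma adjusted p was 0.055 and 0.091 with the block, and 0.99998 for both without it. A gene that is not called below may thus still differ between genotypes. Summed Treg and CD4 T cell markers covered 14051 to 16324 intensity units in me, 13235 to 15258 in he and 12447 to 14085 in WT, with 7 of 7 markers above the array median on all arrays. Of the marker lists for B cells, plasma cells, macrophages, neutrophils, CD8 and NK cells and erythroid cells, no gene passed the test between me and WT. Yet with the block some had an unadjusted limma p under 0.05, all of them higher in me. These were 3 of 7 neutrophil, 2 of 6 B cell, 2 of 7 macrophage, 2 of 7 plasma cell and 1 of 7 CD8 and NK markers. No erythroid marker was among them, and the share of all probe sets was 4.31%. The largest plasma cell difference was 2.13. The ratio of 3′ to 5′ Gapdh probes, a sign of RNA quality and amplification, was 10.9, 9.92 and 13.8 in me, 9.71, 7.88 and 8.53 in he, and 9.53, 7.84, 9.27 and 7.90 in WT. The me arrays had the 3 highest ratios. With the ratio as a covariate no member was called, but 5 of 30 genes were higher in me than in WT, against 15 without it, and 5 in me than in he, against 24 without it. The differences between me and WT of Prim1 (0.046), Pcna (-0.070), Rpa2 (-0.054) and Chaf1b (0.0083) then had the opposite sign.

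The 30 measured genes separated set B arrays of the same genotype as a block. In set B all 30 genes were higher on he 3 than on he 2, with a median difference of 0.47 and a range of 0.06 to 1.08. Of all genes, 52.3% were higher on he 3 in the same comparison. Likewise 29 of the 30 were higher on WT 4 than on WT 3 (median 0.33), against 46.9% of all genes, with E2f1 the exception at -0.09. The 76 other replication and G1 genes measured followed less fully. Of these, 54 were higher on he 3 than on he 2 (median 0.22), and 54 on WT 4 than on WT 3 (median 0.12). In bulk RNA a different share of cycling cells and a different amount of RNA per cell cannot be told apart. These are differences between single arrays and have no replicate check.

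Ribonucleotide reductase, which makes deoxynucleotides, showed the largest of these gaps. Its large subunit Rrm1 read 11.40 on he 3 and 10.33 on he 2, a difference of 1.08. The small subunit Rrm2 differed by 0.80, the salvage enzyme Tk1 by 0.75, the GINS subunit Gins1 by 0.71 and the helicase subunit Mcm3 by 0.66. At the other end, cyclin E2 (Ccne2) differed by 0.06, Tyms by 0.07 and Mcm4 by 0.14. The Mcm4 value came from a probe set with the _x_ mark, explained below. The unmarked Mcm4 probe set read 10.73 on he 3 and 10.13 on he 2. Between WT 4 and WT 3 the largest differences were 0.58 for Rrm2, 0.55 for Mcm3 and 0.54 for Pola1, the catalytic subunit of the primase-polymerase. Mcm4 differed there by 0.09 at the marked probe set, and Tyms by 0.02. The unmarked Mcm4 probe set read 10.70 on WT 4 and 10.24 on WT 3.

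**Figure D1:**
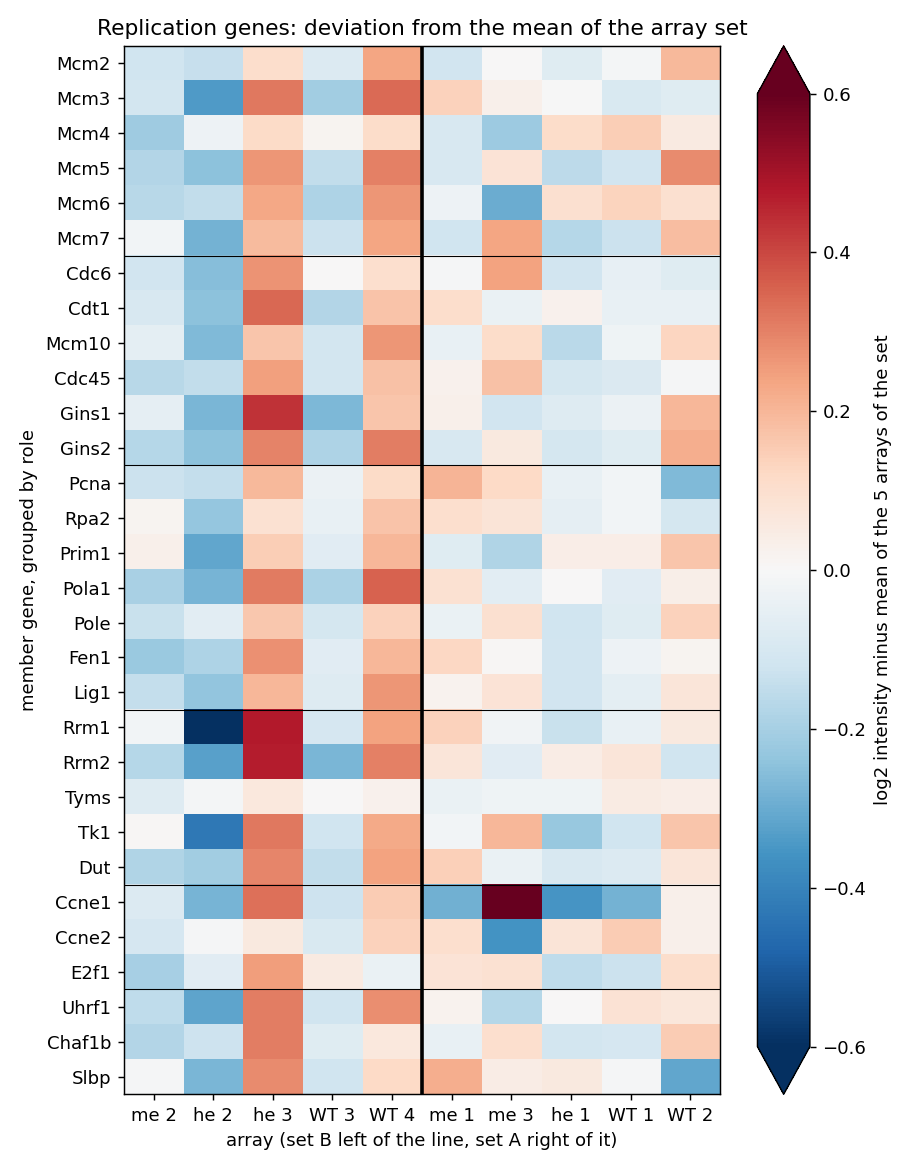
Each cell is the log2 intensity of 1 gene on 1 array minus the mean of that gene over the 5 arrays of its set; genes run down the page by role, and the black line parts set B (left) from set A. The he 3 column lies above its set mean for 30 of 30 genes and the he 2 column for 0 of 30.

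Set A showed no such block. Of the 30 genes, 14 were higher on me 3 than on me 1 (median -0.06, against 47.9% of all genes), and 19 were higher on WT 2 than on WT 1 (median 0.10, against 54.4%). Set against the mean of its set, the median gene stood at 0.27 on he 3, 0.20 on WT 4, -0.11 on WT 3, -0.12 on me 2 and -0.25 on he 2. In set A these medians ran only from -0.09 on he 1 to 0.06 on WT 2, with 0.02 on me 1, 0.04 on me 3 and -0.04 on WT 1. In the fit with genotype and the array set block, the median residual SD of the genes was 0.195, against 0.108 over all genes. This residual also holds any genotype difference that the 2 sets did not share. The scale narrows the spread of dim genes, so the 2 values are not alike in brightness.

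Mitosis and G2/M genes followed the same arrays. All 17 measured were higher on he 3 than on he 2 (median 0.81) and all 17 on WT 4 than on WT 3 (median 0.55). Other quantities moved less evenly with these arrays. The Gapdh ratio was higher on he 3 than on he 2 but lower on WT 4 than on WT 3. Of the Treg and CD4 T cell markers 6 of 7 were higher on he 3 than on he 2 (median 0.17), and 5 of 7 on WT 4 than on WT 3 (median 0.06). All 7 neutrophil markers were higher on he 3 (median 0.10), and 5 of 7 on WT 4 (median 0.04). Of the macrophage markers 6 of 7 were higher on he 3 (median 0.19), and 3 of 7 on WT 4 (median -0.01). Higher on he 3 were 2 of 6 B cell, 3 of 7 plasma cell, 2 of 7 CD8 and NK and 4 of 5 erythroid markers. On WT 4 the counts of these lists were 3 of 6, 2 of 7, 3 of 7 and 1 of 5. By Xist and the Y-linked Eif2s3y, both he arrays were from females, while WT 4 was from a male and WT 3 from a female. The part of these quantities in the pattern was not tested.

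**Figure D2:**
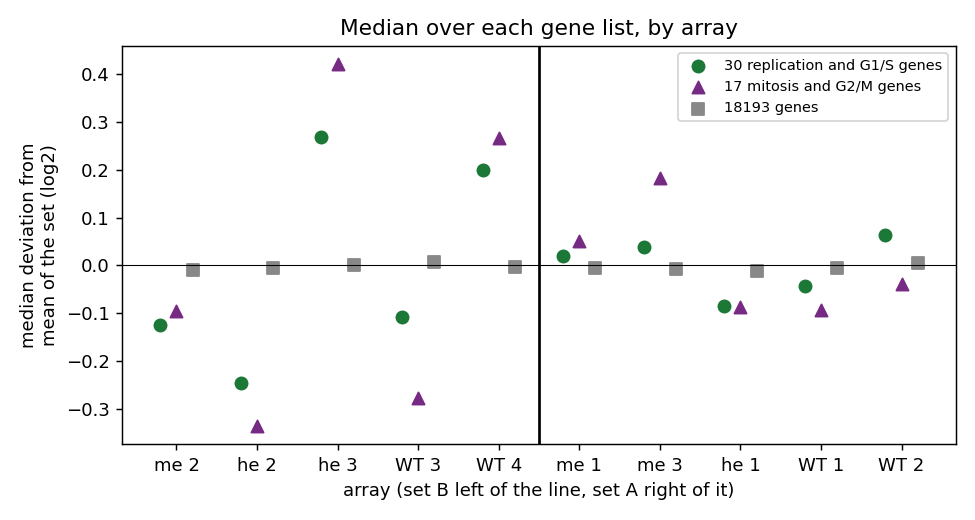
The y axis is the median log2 deviation from the mean of the array set, over the 30 replication and G1/S genes (circles), 17 mitosis and G2/M genes (triangles) and 18193 genes (squares), for each array. Both cell cycle lists stand highest on he 3 and lowest on he 2, while the median of all genes stays near 0 on every array.

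Homozygous loss of SHP-1 moved no replication gene past the test. In me against WT, 15 of the 30 genes were higher and 15 lower, with a median difference of 0.00 (-0.00026), against 50.1% and 49.9% of all genes. The fit was limma's moderated test with Benjamini-Hochberg adjustment over 45037 probe sets, and 0 members passed an adjusted p of 0.05, as did 0% of all probe sets. At an unadjusted p under 0.05 there were 0 members, against 0.626% of probe sets. With the array set block 9 genes were higher and 21 lower, with a median of -0.05, against 49.3% and 50.7% of all genes. Again 0 members were called, and 0.00666% of probe sets (3 in all, 2 for Socs2 and 1 for Tesc). Only Mcm4 had an unadjusted p under 0.05 there, which 4.31% of probe sets had. The 95% intervals of all 30 genes lay within 1 log2 unit of 0 in the blocked fit. No gene had me arrays entirely above or below the WT arrays, against 1.64% of probe sets.

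The sets did not share a direction. Within set A 18 of 30 genes were higher in me (2 arrays) than in WT (2 arrays), with a median of 0.03, against 48.9% of all genes. Within set B 0 of 30 were higher on me 2, the single me array, than in the mean of WT 3 and WT 4, with a median of -0.17, against 45% of all genes. On 16 of the 30 genes me 2 was below both WT arrays of its set, against 36.5% of all genes. On me 2 all 7 neutrophil markers were above both of those WT arrays (median 0.31 over their mean), against 29.5% of all genes. Of the B cell markers 5 of 6 were above the WT mean (median 0.19). So were 6 of 7 plasma cell, 5 of 7 macrophage, 4 of 7 CD8 and NK and 2 of 5 erythroid markers. Only 1 of the 7 neutrophil and 2 of the 6 B cell markers lay above the median probe set on all arrays. In set A, 6 of 7 neutrophil and 6 of 6 B cell markers were higher in me than in WT (medians 0.21 and 0.09). The part of these markers in the result was not tested. Without me 2, 24 of 30 genes were higher in me than in WT in the fit with no block, and without me 3 there were 6. Under neither omission was a member called.

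Among the MCM helicase subunits, 2 of 6 were higher in me than in WT and 4 lower, and 1 and 5 with the set block. The bright Mcm4 probe set read 11.73, 11.29 and 11.61 in me, 11.94, 11.47 and 11.61 in he, and 11.98, 11.88, 11.51 and 11.61 in WT. In each set the me arrays were the lowest, though the groups overlapped across sets. The difference between me and WT was -0.20 ± 0.16 (SE) with no block. With the block it was -0.27 ± 0.06, or 1.20-fold lower, with a 95% interval of -0.39 to -0.14 (unadjusted p = 0.0012, limma adjusted p = 0.69).

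The second Mcm4 probe set gave a different picture. It read 11.03, 10.20 and 11.02 in me, 10.83, 10.13 and 10.73 in he, and 10.88, 10.66, 10.24 and 10.70 in WT. Here the set A me arrays were the highest of their set, and the blocked difference was 0.05 ± 0.17 (unadjusted p = 0.79). The probe set with the low me values carries the _x_ mark, by which the array's maker names probe sets that may bind several transcripts.

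Mcm6 behaved alike. Its brightest probe set, also with the mark, read 11.53, 10.96 and 11.26 in me, 11.65, 10.98 and 11.36 in he, and 11.69, 11.65, 10.94 and 11.39 in WT. In set A both me arrays were lowest, but in set B me 2 lay just above WT 3. The blocked difference was -0.25 ± 0.13 (unadjusted p = 0.077, limma adjusted p = 0.99), against 0.08 ± 0.16 at the unmarked probe set and -0.11 ± 0.06 at a dimmer marked one. The difference between the probe sets was not itself tested.

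**Figure D3:**
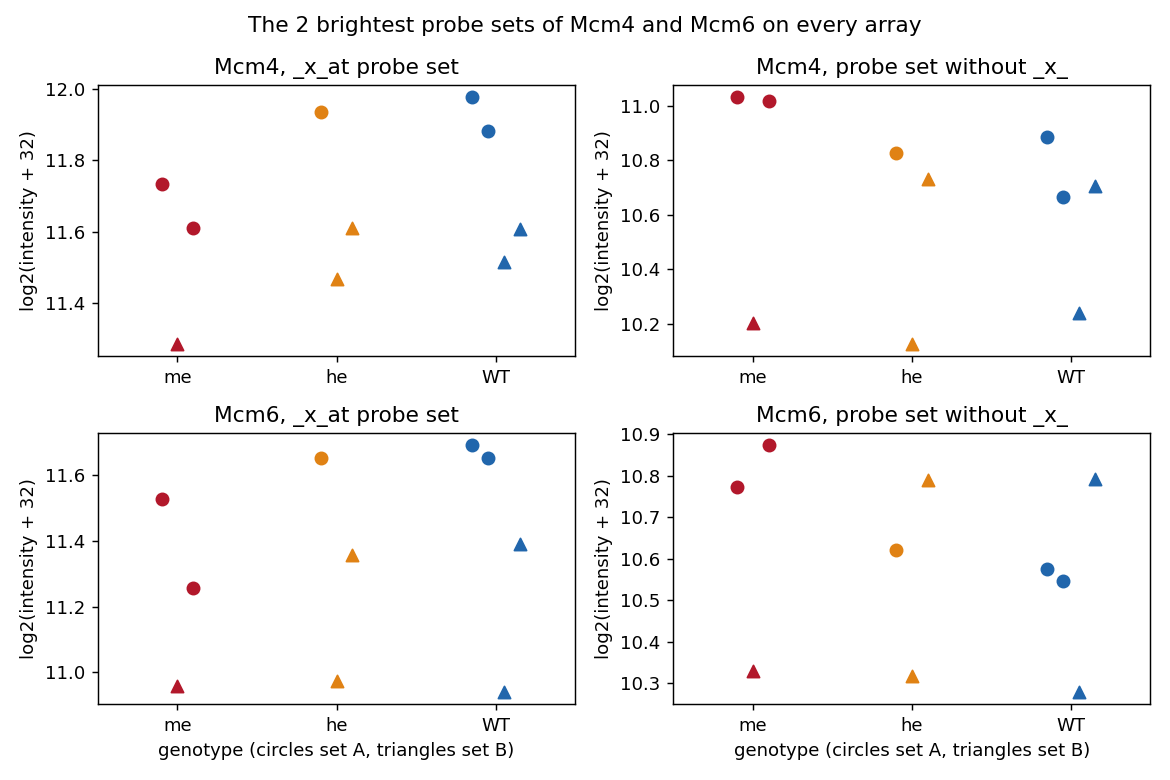
The log2(intensity + 32) of the 2 brightest probe sets of Mcm4 (top) and Mcm6 (bottom) is plotted for me, he and WT arrays, with set A as circles and set B as triangles. On the left, at probe sets marked _x_, the set A me arrays are the lowest circles; on the right, at unmarked probe sets, they are the highest.

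Over all 24 genes with several probe sets, 25 of the 39 additional probe sets had the same sign of the blocked me minus WT difference as the one used. In 13 of the 24 genes all probe sets shared a sign. Mcm2 read 10.30, 9.70 and 10.42 in me, 10.34, 9.69 and 9.93 in he, and 10.40, 10.61, 9.74 and 10.06 in WT. Its groups overlapped, and its blocked difference between me and WT was -0.16 ± 0.10. Mcm3, Mcm5 and Mcm7 had blocked differences of 0.03, -0.15 and 0.00 (-0.0035), none beyond its error. Dimmer Mcm7 probe sets gave -0.26 ± 0.15 at one with the _x_ mark, and -0.15 ± 0.14 and -0.03 ± 0.17 without it.

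The genes that load and activate the helicase differed little between genotypes, and none passed the test. In me against WT 4 of 6 were higher with no block and 3 of 6 with the block, and their blocked differences ran from -0.14 for Gins2 to 0.05 for Cdc6, the licensing ATPase. Mcm10, which helps to start the helicase, read 9.24, 8.67 and 9.39 in me, 9.12, 8.47 and 8.90 in he, and 9.26, 9.41, 8.62 and 8.997 in WT. All 3 groups overlapped, with the set B arrays the lowest in each. Cdt1, the loader that is destroyed once S phase starts, differed by 0.01 ± 0.14 and Cdc45 by 0.02 ± 0.12.

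Of the 7 polymerase and fork genes, 3 were higher in me than in WT and 4 lower, and 2 and 5 with the block. Prim1, the primase that lays down RNA primers, had the smallest p of the unblocked fit and read 10.53, 10.85 and 10.42 in me, 10.64, 10.51 and 10.97 in he, and 10.64, 10.77, 10.75 and 11.02 in WT. Both set A me arrays lay below every WT array and me 2 did not. Its difference was -0.19 ± 0.15 (unadjusted p = 0.22), and -0.16 ± 0.12 with the block. A second Prim1 probe set read 10.60, 9.96 and 10.70 in me and 10.56, 10.74, 9.96 and 10.31 in WT. There the difference was 0.03 ± 0.27, and -0.07 ± 0.15 with the block.

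Pcna, the sliding clamp, stood on the other side. It read 13.20, 12.70 and 13.11 in me, 12.95, 12.69 and 13.02 in he, and 12.97, 12.73, 12.79 and 12.94 in WT. The set A me arrays were the highest of all 10 and me 2 was below every WT array, so the groups overlapped. The difference between me and WT was 0.14 ± 0.14, or 0.12 ± 0.12 with the block, and it was -0.03 without normalisation between arrays. Rpa2, a subunit of the complex that coats single-stranded DNA, read 9.63, 9.35 and 9.60 in me, 9.48, 9.10 and 9.43 in he, and 9.51, 9.42, 9.29 and 9.51 in WT. It too was highest on the set A me arrays, with a difference of 0.10 ± 0.11. The remaining fork genes, Pola1, the leading-strand polymerase Pole, the flap nuclease Fen1 and the ligase Lig1, had blocked differences between -0.09 and -0.05.

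Nucleotide supply genes were higher in me than in WT for 4 of 5 with no block and for 1 of 5 with the block. Tyms, which makes thymidylate, read 7.87, 7.66 and 7.89 in me, 7.88, 7.73 and 7.80 in he, and 7.96, 7.95, 7.74 and 7.76 in WT. The me arrays were the lowest of set B and, together with he 1, below the WT arrays of set A. Its blocked difference was -0.08 ± 0.04 (unadjusted p = 0.098) at a probe set close to the array median. Tk1, the thymidine salvage kinase, read 9.63, 9.07 and 9.85 in me, 9.42, 8.63 and 9.38 in he, and 9.53, 9.82, 8.94 and 9.29 in WT. The highest array was me 3 and the lowest he 2, and all 3 groups overlapped. Rrm1, Rrm2 and Dut, the dUTPase that keeps uracil out of DNA, had blocked differences between me and WT of 0.00 (-0.0019), -0.05 and -0.05.

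The G1/S switch genes were read less surely. Ccne2 read 8.66, 7.59 and 8.20 in me, 8.64, 7.69 and 7.75 in he, and 8.71, 8.59, 7.60 and 7.83 in WT. Set A arrays were the higher ones in every genotype, and the blocked difference between me and WT was -0.18 ± 0.11. Ccne1, cyclin E1, read 9.40, 12.02 and 10.58 in me, 9.33, 11.82 and 12.43 in he, and 9.40, 9.72, 11.97 and 12.25 in WT at a probe set with the _x_ mark. That probe set was higher in set B by 2.47, the largest set difference of the 30 genes, and me 3 lay between the sets. The unmarked Ccne1 probe set was lower in set B by 0.64, reading 8.55, 7.93 and 8.67 in me, 8.50, 7.93 and 8.04 in he, and 8.63, 8.71, 7.85 and 8.09 in WT. Neither separated the genotypes: the blocked differences between me and WT were 0.24 ± 0.28 at the marked and -0.05 ± 0.08 at the unmarked probe set. E2f1, an activator of S phase genes, differed by -0.01 ± 0.12.

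Among genes that supply chromatin behind the fork, 1 of 3 was higher in me than in WT in either fit. Slbp, the protein that binds the stem loop of histone mRNA, read 11.06, 10.75 and 10.89 in me, 10.90, 10.48 and 11.04 in he, and 10.84, 10.53, 10.64 and 10.88 in WT. Its difference was 0.18 ± 0.15 with overlapping groups, and it was -0.01 (-0.0094) within set B. Chaf1b, of the chromatin assembly factor, read 8.44, 8.53 and 8.59 in me, 8.38, 8.58 and 9.01 in he, and 8.38, 8.63, 8.63 and 8.76 in WT. The high array was he 3, and me differed from WT by -0.09 ± 0.15. Uhrf1, which guides maintenance methylation to new DNA, read 9.88, 8.73 and 9.69 in me, 9.87, 8.56 and 9.18 in he, and 9.95, 9.93, 8.76 and 9.16 in WT. Its difference between set B and set A, -1.01, was the lowest of the 30 genes, and it had a blocked difference between me and WT of -0.18 ± 0.15.

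**Figure D4:**
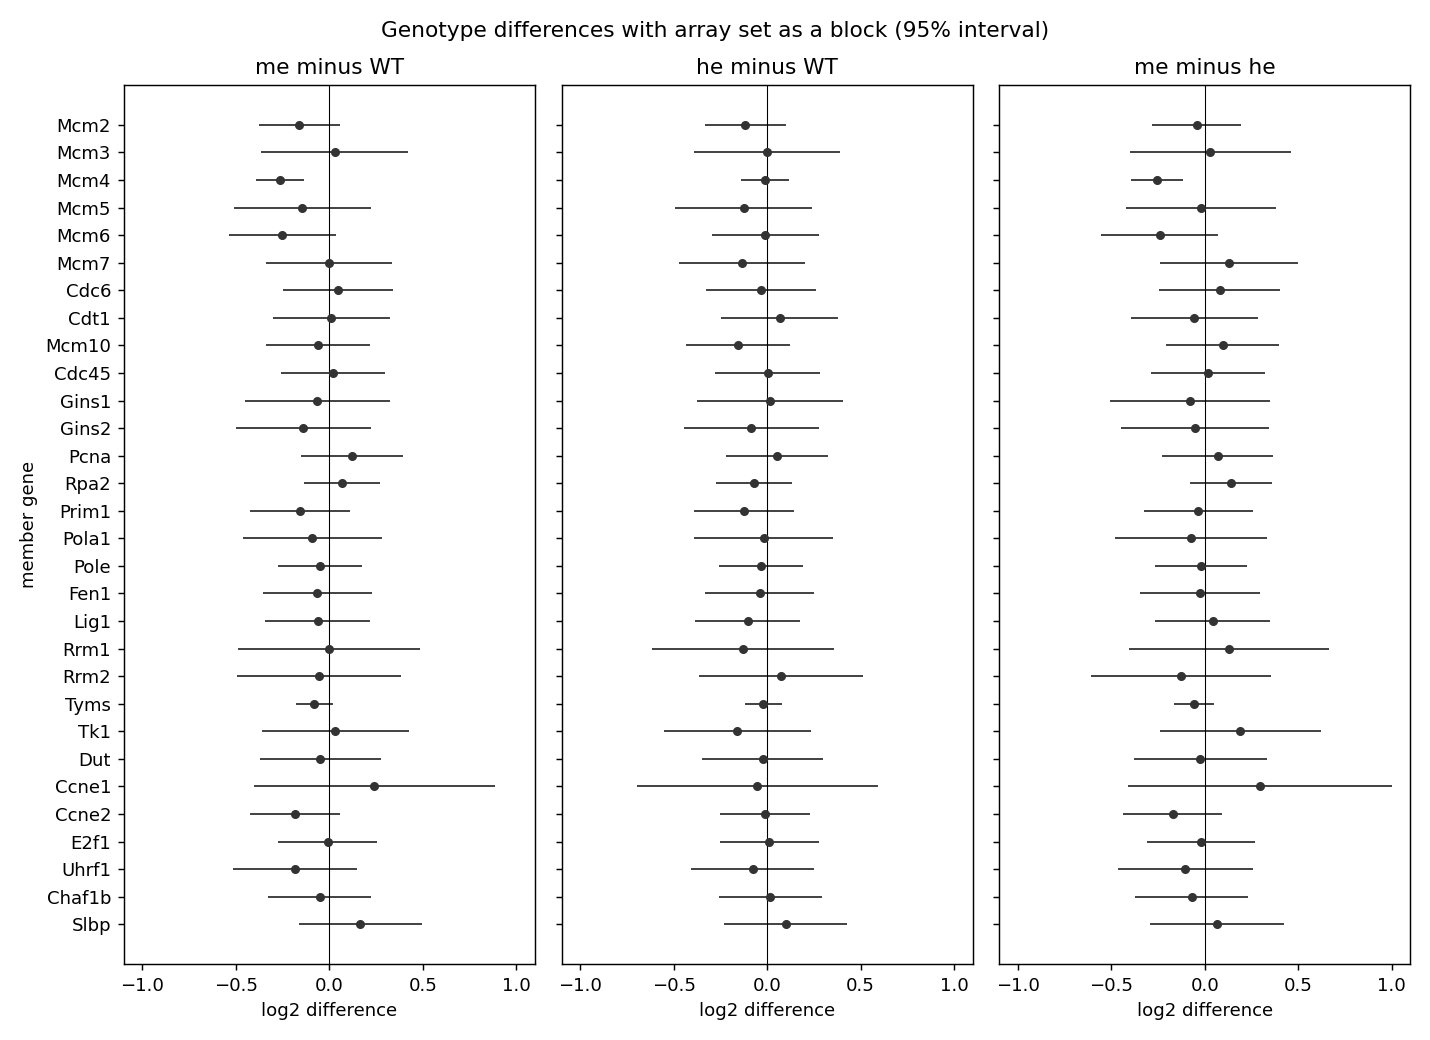
Points are log2 differences of the 30 genes for me minus WT (left), he minus WT (middle) and me minus he (right), from the blocked fit, and bars are 95% intervals. In the left panel all 30 intervals lie within 1 log2 unit of 0, and Mcm4 is the one that leaves 0 out before adjustment.

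Heterozygous loss of SHP-1 likewise moved no member past the test. In he against WT 5 genes were higher and 25 lower (median -0.09), against 46.9% and 53.1% of all genes, and 0 members were called, with 0% of probe sets. With the block 8 were higher and 22 lower (median -0.03), against 47.5% and 52.5% of all genes, with 0 members and 0% of probe sets called. At an unadjusted p under 0.05 there were 0 members in both fits, against 0.298% of probe sets, and 2.13% with the block. By Xist and Eif2s3y all 3 he arrays were from females, while 2 of the 3 me arrays (me 1 and me 2) and 2 of the 4 WT arrays (WT 2 and WT 4) were from males. With array set and sex as blocks, 17 of 30 genes were higher in he than in WT. No gene had groups that did not overlap, against 1.04% of probe sets. Within set A he 1 was above the mean of WT 1 and WT 2 in 8 of 30 genes (median -0.08, against 43.9% of all genes). Within set B the he mean was the higher in 12 of 30 (median -0.02, against 47.6%). The count of higher genes turned on the pair of set B arrays described above: without he 2 it was 23 of 30, and without he 3 it was 0 of 30. The 4 genes with the smallest blocked p were Mcm10 (-0.15 ± 0.12), Mcm2 (-0.12 ± 0.10), Prim1 (-0.12 ± 0.12) and Tk1 (-0.16 ± 0.17), all at a limma adjusted p of 1.00. Without he 2 the unblocked differences of Prim1 and Tk1 were 0.01 and 0.01 (0.0055).

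In me against he 24 genes were higher and 6 lower with no block (median 0.12), against 53.5% and 46.5% of all genes. With the block 12 were higher and 18 lower (median -0.02), against 51.8% and 48.2%. The he group had 2 of its 3 arrays in set B and the me group 1 of 3. Within set A 23 of 30 genes were higher in me than on he 1 (median 0.14, against 54.1% of all genes), and within set B 5 of 30 were higher on me 2 than in the he mean (median -0.14, against 47%). In both fits 0 members were called, and 0% of probe sets. With no block 0 members had an unadjusted p under 0.05, against 0.668% of probe sets. Mcm4, at its marked probe set, again had the smallest blocked p, with a difference of -0.26 ± 0.06 (unadjusted p = 0.0027, limma adjusted p = 0.999), and was the only member under 0.05, against 3.21% of probe sets. Mcm6 followed with -0.24 ± 0.14, then Ccne2 with -0.17 ± 0.12 and Rpa2 with 0.14 ± 0.10. For Ccne2 the sign depended on the block, since it was 0.13 ± 0.40 without it. All intervals lay within 1 log2 unit of 0 except that of Ccne1, whose upper bound was 1.00 (1.002). Groups that did not overlap were seen for 0 members, against 2.71% of probe sets. Array weights estimated by limma called 25 members here, with 27288 probe sets, but the weight of me 3 was 26.6 and that of he 2 was 7.08, with 0.27 to 0.83 for the other 8 arrays. The estimation stopped before it converged, and those 2 arrays lie in different sets.

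A moderated F test over the 3 genotypes called 0 members, with 0% of probe sets, with and without the block. With no block 0 members had an unadjusted p under 0.05, against 0.446% of probe sets. In the blocked fit only Mcm4 had an unadjusted p under 0.05 (0.0026), as did 2.86% of probe sets.

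No other gene of these pathways passed the test between me and WT. Of 77 other replication and G1 genes, 76 were measured, and in me against WT 37 were higher and 39 lower, or 34 and 42 with the block (median -0.02), with 0 called in either fit. With the block 3 of the 76 (3.95%) had an unadjusted p under 0.05, Gart, Rfc4 and Ctps, a share no larger than the 4.31% of probe sets. All 3 were lower in me. Gart, an enzyme of purine synthesis, read 9.51, 8.54 and 9.31 in me, 9.61, 8.82 and 8.71 in he, and 9.90, 9.86, 8.73 and 9.06 in WT. Its me arrays were the lowest of each set, and its blocked difference was -0.42 ± 0.09 (unadjusted p = 0.0011, limma adjusted p = 0.69). The clamp loader subunit Rfc4 differed by -0.18 ± 0.08 and the CTP synthase Ctps by -0.13 ± 0.05. The other 7 nucleotide supply genes were all lower in me with no block and 6 of 7 with it, among them the thymidylate kinase Dtymk at -0.27 ± 0.12.

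Origin licensing and firing genes were split evenly, 8 higher and 8 lower with the block. Those with the smallest p were the helicase Mcm8 (-0.21 ± 0.10), the helicase Recql4 (-0.13 ± 0.12) and the origin recognition subunit Orc6 (-0.09 ± 0.08). Of 23 other polymerase, clamp loader and fork genes 10 were higher, with Rfc3 at -0.11 and Rfc2 at 0.15. In the replication-coupled chromatin list 4 of 6 were higher, led by the maintenance methyltransferase Dnmt1 (0.25 ± 0.15), the acetyltransferase Hat1 (0.16 ± 0.11) and the histone chaperone Asf1b (0.15 ± 0.17). The Dnmt1 probe set read 10.74, 13.60 and 11.20 in me, 10.68, 13.15 and 13.73 in he, and 10.70, 10.78, 13.25 and 13.43 in WT. As with Ccne1, the set B arrays were far the higher and me 3 lay between.

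Of 24 G1 cyclins, kinases, inhibitors, RB and E2F genes 11 were higher with the block. The RB family member Rbl1 differed by 0.29 ± 0.13, E2f2 by 0.22 ± 0.14 and E2f4 by -0.09 ± 0.06, none with an unadjusted p under 0.05. The 17 mitosis and G2/M genes were all higher in me than in WT with no block (median 0.15), and 12 of 17 with it (median 0.09), and 0 were called in either fit. Within set A 15 of 17 were higher in me (median 0.16), against 48.9% of all genes. Within set B 3 of 17 were higher on me 2 than in the WT mean (median -0.09), against 45% of all genes. Their smallest blocked p values were those of the centromeric histone Cenpa (0.26 ± 0.14), the spindle factor Tpx2 (1.03 ± 0.66) and the proliferation marker Mki67 (0.14 ± 0.19). The Tpx2 probe set was the 1 of the 17 that was higher in set B than in set A, by 5.37. Its genotype difference therefore rests heavily on the set term.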

How the data were processed

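RNA of 10 samples was measured on an Affymetrix array. The deposited values are linear intensity, 1 per probe set and array; how the authors summarised, background-corrected and scaled them is not given in the sources used here. After removal of 64 control rows from 45101, 45037 probe sets were tested. Per the platform annotation, 34945 name 1 gene, 932 several and 9160 none. Values were taken as log2(intensity + 32), quantile normalised between arrays and fitted with limma 3.58.1 in R 4.3.3 (lmFit, eBayes, Benjamini-Hochberg over all probe sets, threshold 0.05) over all 10 arrays, with 7 residual degrees of freedom, or 6 with array set as a block. Array sets come from average linkage on correlations cut into 2. The number of arrays limits the precision. The methods were tested on simulated data. Whether the replicate numbers pair the samples could not be told, and the samples were fitted as unpaired. The members, lists and tests were chosen with earlier results of these data known. Genes given array by array are the 8 with the smallest p in me minus WT in each fit, the 4 with the smallest blocked p in the other comparisons, and up to 3 per other list; Ccne1 and Dnmt1 and the genes named for the he 3 and WT 4 arrays were chosen after their values were seen. Alternatives covered the block, sex, Gapdh ratio, normalisation, pseudocount, filter, prior, array weights, probe set choice and each array left out.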

Additional observations from a re-analysis of the deposited data

Results flagged for a closer look

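Mcm3 on the array WT 3 read 9.69, far below the other WT arrays, which read 10.26, 10.27 and 10.24. The gap to the nearest of them was 0.939 of the range of the 4 arrays. The limit applied is passed by chance in about 1 of 20 groups of 4, and 30 genes were examined. WT 3 lies in set B, where Mcm3 was low on he 2 (9.56) and me 2 (9.79) too and was 10.22 on he 3.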

How the results depend on the processing

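No member was called in any of the 40 settings except under array weights. Ccne2 and Tyms lie near the array median (7.62), where the scale understates differences. With the array set block, 3 probe sets were called in me minus WT, members higher numbered 9 (me minus WT), 8 (he minus WT) and 12 (me minus he), and Ccne2 in me minus he was -0.17. With me 3 moved to set B, me minus WT was 0.11 for Ccne2, 0.019 for Mcm2 and 0.13 for Uhrf1. With set and sex as blocks, members higher numbered 7, 17 and 10 in the same order of comparisons, and Ccne2 in me minus he was -0.31. Within set A, Chaf1b in me minus WT was 0.0038, 8 members were higher in he minus WT, and Ccne2 in me minus he was -0.20. Within set B, 0, 12 and 5 members were higher, the median of me minus he was -0.14, Slbp, Pcna and Rpa2 in me minus WT were -0.0094, -0.17 and -0.046, and Ccne2 in me minus he was -0.12.

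Without normalisation between arrays, Pcna in me minus WT was -0.034, 1 member was higher in he minus WT, and Mcm4 and Mcm6 in me minus he were 0.0065 and 0.070. Centring on the array median gave -0.015 for Pcna, 1 member higher in he minus WT, and 0.046 and 0.11 for Mcm4 and Mcm6 in me minus he. With the Gapdh ratio as a covariate 5 members were higher in me minus WT and 5 in me minus he, Prim1, Pcna, Rpa2 and Chaf1b in me minus WT were 0.046, -0.070, -0.054 and 0.0083, and Ccne2 in me minus he was -0.25. Adding the set block to it gave 8, 9 and 12 members higher, with Pcna -0.030 and Ccne2 0.054 in me minus WT. The mean of all probe sets of a gene gave 0.0059 for Mcm2 and 0.013 for Uhrf1 in me minus WT, and 0.031 for Mcm4 and 0.048 for Mcm6 in me minus he. Probe sets without the _x_ mark, a setting chosen after seeing the data, gave 0.13 for Mcm4 and 0.11 for Mcm6 in me minus WT, and 0.19 and 0.083 in me minus he. The cause of these changes was not tested.

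Array weights, which rest nearly on me 3 and he 2 alone, gave 2 probe sets called and 25 members higher in me minus WT, with Tyms 0.030, Ccne2 0.026, Mcm2 0.20 and Uhrf1 0.24. They gave 1 member higher and a median of -0.40 in he minus WT. In me minus he they gave 27288 probe sets and 25 members called, a median of 0.50, 0.12 for Mcm4 and 0.24 for Mcm6, and the F test called 22774 probe sets.

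Leaving out each array in turn called 0 members in every fit. Probe sets called ranged from 0 to 2 in me minus WT (0 to 5 with the block), 0 to 2 in me minus he and 0 to 2 in the F test. Members higher ranged from 6 to 24 in me minus WT (6 to 19 with the block), 0 to 23 in he minus WT in both fits, and 6 to 27 in me minus he (5 to 26 with the block). Medians ranged from -0.10 to 0.22 in me minus WT (-0.10 to 0.05 with the block), -0.19 to 0.05 in he minus WT (-0.17 to 0.05) and -0.06 to 0.30 in me minus he (-0.11 to 0.11). In me minus WT, signs turned for Ccne2 (-0.29 to 0.25), Mcm2 (-0.22 to 0.16), Tyms (-0.089 to 0.024), Uhrf1 (-0.24 to 0.34) and, with the block, Chaf1b (-0.12 to 0.050, and -0.16 to -0.033 with no block). In he minus WT they turned for Prim1 (-0.22 to 0.011) and Tk1 (-0.40 to 0.0055, and -0.37 to 0.0055 with the block). In me minus he they turned for Ccne2 (-0.13 to 0.43, and -0.27 to -0.056 with the block), Mcm4 (-0.23 to 0.0038, and -0.29 to -0.22 with the block) and Mcm6 (-0.26 to 0.080, and -0.33 to -0.15 with the block). The replicate numbers gave correlations of deviations from -0.87 to 0.94. They were positive between arrays of the same set and negative between arrays of different sets. Array set was not removed from the deviations, so they cannot show whether replicate numbers pair the samples. With replicate number as a block, the replicate block fit called 0 probe sets in each comparison, with 16, 5 and 24 members higher.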
